A study of Mus musculus with 12 samples.

Results

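Vcam1 and 9 further genes that encode molecules of leukocyte adhesion were examined in mice treated with dihydrotestosterone (DHT), in the ovaries and in the gonadal fat. The 10 genes are Vcam1, Icam1, Icam2, Sele, Selp, Selplg, Itga4, Itgb1, Itgal and Itgb2, out of 30176 genes that have a transcript cluster with 1 gene symbol on the array. The set was chosen from the measured values of these arrays, with no statement of which contrast chose it. Vcam1, after which it is named, was taken as chosen for its difference between DHT-treated and placebo-treated ovaries, so its values are given as a description with no test. The other members are known partners or relatives of VCAM1. Each of the 10 genes had 1 such cluster.

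The study used C57BL/6J females that carried, from 25 days of age and for about 60 days, a silicone capsule with 5 mg of DHT powder, a model of the hyperandrogenism of polycystic ovary syndrome, while placebo-treated mice carried an empty capsule. DHT is an androgen that cannot be converted to oestrogen. Total RNA of whole ovaries and of gonadal fat pads, 3 DHT-treated and 3 placebo-treated samples of each, was measured on 12 Affymetrix mouse transcriptome arrays, and the labels call the replicates biological. All groups share the strain, the sex and the age, and no allele was changed. Values are log2 expression values per transcript cluster as the authors deposited them. Ovary arrays had medians of 4.35 to 4.43 and gonadal fat arrays had medians of 3.30 to 3.52. For this reason no level was compared between the tissues. The 7 granulosa cell markers with a cluster averaged 8.66 to 9.02 in DHT-treated and 8.84 to 8.95 in placebo-treated ovaries, and the adipocyte markers of gonadal fat averaged at least 10.01, so both tissues carried their own markers. Of the ovary arrays, DHT replicate 3 and placebo replicate 2 were highest, with 7.80 and 7.97 for the mean of 7 oviduct markers. DHT replicate 2 was at 6.67 and the rest at 5.66 to 5.73. The oviduct marker Ovgp1 was at 11.32 and 11.55 in the 2 highest arrays. It was at 10.27 in DHT replicate 2 and at 5.14 to 5.55 in the rest.

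Leukocytes leave the blood in steps. Selectins on the activated vessel wall (E-selectin, encoded by Sele, and P-selectin, encoded by Selp) catch the glycoprotein PSGL-1 (Selplg) on rolling cells, after which leukocyte integrins bind immunoglobulin-type ligands of the endothelium and the cell crosses the wall. VCAM1 is the ligand of the integrin VLA-4, a dimer of the products of Itga4 and Itgb1, and ICAM1 and ICAM2 are ligands of LFA-1, a dimer of the products of Itgal and Itgb2. Inflammatory cytokines induce VCAM1, ICAM1 and E-selectin on endothelial cells through NF-kB, and VCAM1 is also made by stromal cells. Both tissues hold endothelium, stroma and resident leukocytes, and in whole tissue fewer cells of a type and less RNA per cell cannot be told apart.

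The RefSeq promoter table (GRCm38.p6, 250 bases before to 50 after each start site) held windows for 5 of the 10 members and for 74 of the 103 genes of the adhesion network described further on. There was no window for Vcam1, Icam2, Selplg, Itgal or Itgb2, so the promoter of Vcam1 was not searched. The core GGAAATTCC of an NF-kB motif was searched on both strands, where it reads GGAATTTCC on the other, and this spelling was chosen after the windows had been read. It occurred in 104 of 32851 windows (0.32%) and in 3 network genes, which are Icam1 and 2 genes that NF-kB itself induces, Nfkbia (the inhibitor IkB-alpha) and Tnfaip3 (the inhibitor A20). They are shown because the expression of these 3 genes is set beside that of Vcam1. The printed stretch of the window lies at chr9:21015762-21015820 on the plus strand for Icam1 and at chr12:55492643-55492701 on the minus strand for Nfkbia. For Tnfaip3 it lies at chr10:19015401-19015459 on the minus strand, and capitals mark the core.
Icam1: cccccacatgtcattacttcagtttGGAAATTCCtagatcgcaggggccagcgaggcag
Nfkbia: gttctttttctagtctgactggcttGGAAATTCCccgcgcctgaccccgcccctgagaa
Tnfaip3: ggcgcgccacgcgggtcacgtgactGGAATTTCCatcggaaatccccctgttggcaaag
The core begins 153 bases before the start site in Icam1, 29 before it in Nfkbia and 24 before it in Tnfaip3. These matches describe the letters of the window and were not tested as binding sites.

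Vcam1 was far more abundant in the ovaries of DHT-treated mice. The 3 DHT-treated ovaries had log2 values of 9.57, 9.84 and 9.48, and the 3 placebo-treated ovaries had 6.38, 6.37 and 6.48. The groups did not overlap, and each was narrow beside the gap between them. The mean was 9.63 ± 0.19 in DHT-treated and 6.41 ± 0.06 in placebo-treated ovaries (SD, n = 3 each), a log2 difference of 3.22 (standard error 0.10), or 9.32-fold. Among all clusters of an array, Vcam1 stood at percentiles of 97.4 to 97.7 in DHT-treated ovaries and of 79.0 to 80.1 in placebo-treated ovaries. Without the 2 arrays richest in oviduct markers the log2 difference was 3.28. Of 19118 genes tested in the ovaries, 1 had a more positive difference than Vcam1, which ranked 2 from the highest and 5 by size in either direction.

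**Figure D1:**
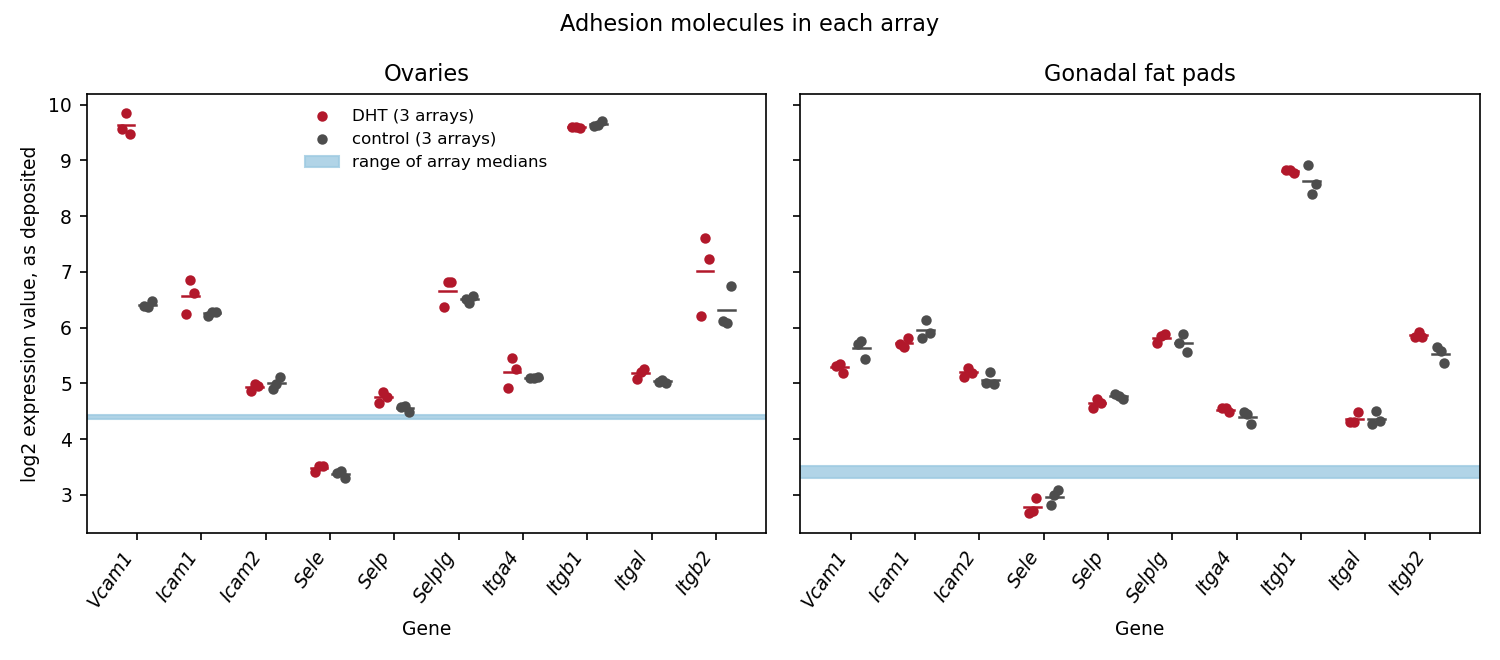
Log2 expression values (vertical axis) of the 10 adhesion molecules (horizontal axis) in each array of the ovaries (left panel) and gonadal fat pads (right panel); red points are the 3 DHT-treated and grey points the 3 control (placebo-treated) arrays, short lines their means, and the blue band the range of the array medians. Vcam1 in DHT-treated ovaries, at 9.48 to 9.84, stands above placebo-treated ovaries at 6.37 to 6.48, whereas the group means of the other genes differ by at most 0.70 in either tissue.

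In gonadal fat Vcam1 differed in the opposite direction and by much less. The DHT-treated fat pads had log2 values of 5.31, 5.35 and 5.19, and the placebo-treated fat pads had 5.70, 5.75 and 5.43. Here too the groups did not overlap, with every DHT-treated value the lower. The mean was 5.28 ± 0.08 in DHT-treated and 5.63 ± 0.18 in placebo-treated fat pads (SD, n = 3 each), a log2 difference of -0.34 (standard error 0.11). The effect in gonadal fat minus the ovarian effect was -3.56 for Vcam1 (standard error 0.15), the most negative of the 18080 genes tested in both tissues. Since Vcam1 was taken as chosen for its ovarian difference, this value is also given without a test.

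None of the other members showed a difference of this size. To be tested in a tissue, a gene had to exceed the array median in at least 3 of 6 arrays, and 9 of the 10 members did so in each tissue, all but Sele. A gene was called where its adjusted p did not exceed 0.10 in limma, a linear model that borrows the spread of all genes. By this rule 1.26% of all genes tested were called in the ovaries (0.544% higher and 0.717% lower) and 3.87% in gonadal fat (2.65% higher and 1.22% lower). None of the 8 other members tested was called in either tissue, with adjusted p of 0.278 to 0.83 in the ovaries and, in gonadal fat, of 0.164 to 0.987. An exact permutation test of 3 samples against 3 cannot give a p below 0.10.

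Among the endothelial ligands of LFA-1, Icam1 had log2 values of 6.24, 6.86 and 6.62 in DHT-treated ovaries, against 6.21, 6.28 and 6.28 in placebo-treated ovaries. DHT replicates 2 and 3 lay above every placebo-treated value and DHT replicate 1 lay among them, so the groups overlapped. The log2 difference was 0.31 (standard error 0.15, adjusted p = 0.445). The DHT-treated fat pads had 5.70, 5.65 and 5.81 and the placebo-treated fat pads 5.82, 6.13 and 5.90, without overlap, and the log2 difference of -0.23 (adjusted p = 0.333) did not pass the test. Icam1, like Vcam1, thus had a positive difference in the ovaries and a negative one in gonadal fat, although neither was called for Icam1. Its effect in gonadal fat minus its ovarian effect was -0.54 (adjusted p = 0.143), and without DHT replicate 1 of the ovaries it was -0.71 and was called (adjusted p = 0.0379). Icam2, which resting endothelium makes without induction, had log2 differences of -0.07 in the ovaries (adjusted p = 0.788) and 0.13 in gonadal fat (adjusted p = 0.551), and its groups overlapped in both tissues.

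Of the vascular selectins, Sele lay below the median of every array. Its log2 values were 3.40, 3.51 and 3.52 in DHT-treated, against 3.39, 3.43 and 3.30 in placebo-treated ovaries, and 2.67, 2.71 and 2.94 in DHT-treated, against 2.82, 3.00 and 3.08 in placebo-treated fat pads. The groups overlapped in both tissues, and Sele was not tested. Selp, which endothelial cells and platelets store in granules, had values of 4.65, 4.84 and 4.76 in DHT-treated ovaries and 4.58, 4.59 and 4.48 in placebo-treated ovaries. These groups did not overlap, but they lay close together, and the log2 difference of 0.20 (standard error 0.07, adjusted p = 0.278) did not pass. In gonadal fat the log2 difference of Selp was -0.12 (adjusted p = 0.529). Its effect in gonadal fat minus its ovarian effect was -0.32 (adjusted p = 0.121), and with the replicate number as a block, which pairs the tissues, it was called (adjusted p = 0.0967). Selplg, the leukocyte ligand of the selectins, had overlapping groups in both tissues, with log2 differences of 0.16 in the ovaries (adjusted p = 0.699) and 0.10 in gonadal fat (adjusted p = 0.694).

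No change was called in the genes of the VCAM1 receptor. Itga4, the alpha chain of VLA-4, had log2 values of 4.92, 5.46 and 5.25 in DHT-treated ovaries, on either side of the placebo-treated ovaries at 5.10, 5.09 and 5.12. Its log2 difference was 0.11 (adjusted p = 0.83) in the ovaries and 0.12 (adjusted p = 0.552) in gonadal fat. Itgb1, the beta chain that most cells of a tissue make, was at 9.60, 9.59 and 9.58 in DHT-treated, against 9.61, 9.64 and 9.70 in placebo-treated ovaries. The Itgb1 groups did not overlap, yet the log2 difference was -0.06 (adjusted p = 0.715), and it was 0.18 (adjusted p = 0.543) in gonadal fat. Its effect in gonadal fat minus its ovarian effect was 0.24 (adjusted p = 0.395), and without placebo replicate 1 of gonadal fat it was 0.38 and was called (adjusted p = 0.0601).

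Itgb2, the beta chain that LFA-1 shares with other leukocyte integrins, had the widest spread within the ovary groups of the 10 genes. It had log2 values of 6.21, 7.60 and 7.23 in DHT-treated ovaries and 6.12, 6.08 and 6.74 in placebo-treated ovaries. DHT replicates 2 and 3 were the highest, while DHT replicate 1 lay below placebo replicate 3, so the groups overlapped. The log2 difference of 0.70 had a standard error of 0.37 and was not called (adjusted p = 0.498). In gonadal fat Itgb2 stood at 5.83, 5.92 and 5.83 in DHT-treated mice, against 5.65, 5.58 and 5.36 in placebo-treated mice. These groups did not overlap, and the log2 difference of 0.33 (standard error 0.10, adjusted p = 0.164) did not pass. Its LFA-1 partner Itgal was at 5.07, 5.21 and 5.26 in DHT-treated, against 5.03, 5.06 and 5.01 in placebo-treated ovaries, a log2 difference of 0.15 (adjusted p = 0.412) without overlap. In gonadal fat the log2 difference of Itgal was 0.00 (adjusted p = 0.987).

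With Vcam1 counted, the groups did not overlap for 4 of the 9 members tested in the ovaries and for 3 of 9 in gonadal fat. Over all genes tested, the groups did not overlap for 20.0% in the ovaries and 22.8% in gonadal fat. Besides Vcam1 these were Selp, Itgb1 and Itgal in the ovaries and Icam1 and Itgb2 in gonadal fat, and nothing is read from counts over so few genes. Without the replicate block, none of the other members had an effect in gonadal fat that differed from its ovarian effect at an adjusted p of 0.10 or less, a rule that called 6.14% of all genes (4.63% with the more positive effect in gonadal fat and 1.51% with the more negative one).

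**Figure D2:**
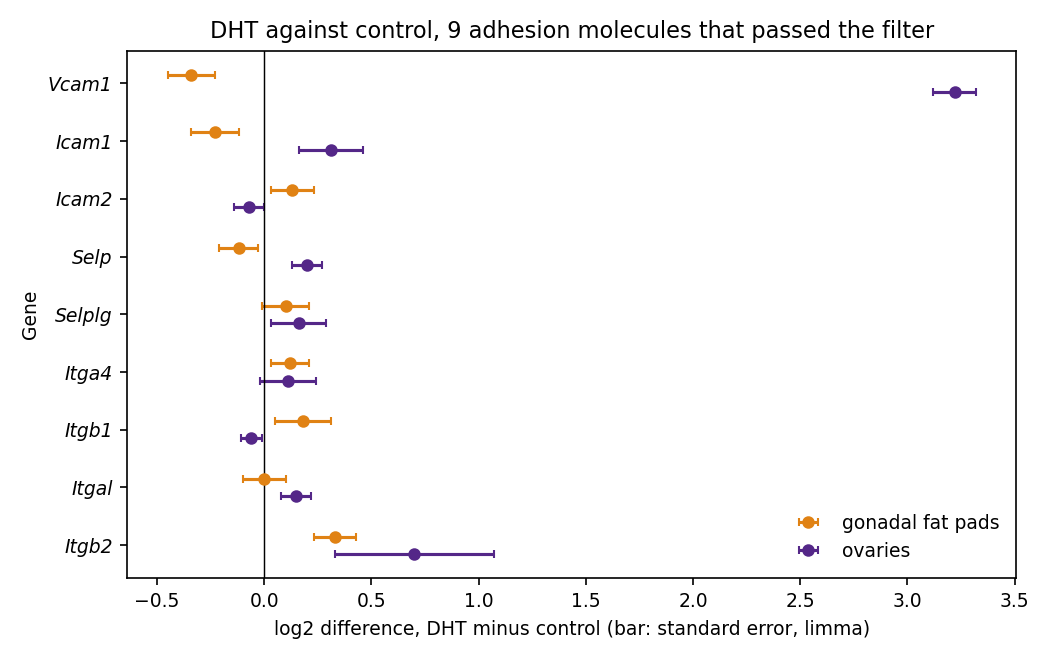
Log2 difference between DHT-treated and control (placebo-treated) mice (horizontal axis, with the limma standard error as a bar) for the 9 members that passed the filter (vertical axis), in orange for gonadal fat pads and in purple for ovaries. Vcam1 is at -0.34 in gonadal fat and 3.22 in the ovaries, and every other point lies between -0.23 and 0.70.

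Cell type markers were set beside these values, since whole tissue was measured. The mean log2 level of 12 macrophage markers was 6.93, 7.45 and 7.38 in DHT-treated ovaries and 6.95, 6.93 and 7.18 in placebo-treated ovaries, so the 2 arrays with the highest means were those with the highest Itgb2 and Icam1 values. Of these 12 markers 1 rose, Mertk, a receptor of phagocytes for dying cells (log2 difference 0.86, adjusted p = 0.0587), and 11 were not called. The mean of 11 endothelial markers lay between 6.92 and 7.02 in DHT-treated and between 6.86 and 7.08 in placebo-treated ovaries, and overlapped. Of these 11, 5 had a higher and 6 a lower mean in DHT-treated ovaries. Vwf, the von Willebrand factor of endothelial granules, rose (log2 difference 0.49, adjusted p = 0.0539) and 10 were not called. The 11 lymphocyte markers with a cluster averaged 4.58 to 4.73 in DHT-treated and 4.51 to 4.55 in placebo-treated ovaries, without overlap. All 8 that were tested had a higher mean in DHT-treated ovaries. Of these Cd4 rose (log2 difference 0.47, adjusted p = 0.0962) and 7 were not called. The mean of 6 markers of the corpus luteum, the gland that forms after ovulation, was 7.21 to 7.67 in DHT-treated and 9.12 to 10.54 in placebo-treated ovaries. Of these 6, Akr1c18, Ptgfr, Star and Cyp11a1 fell and 2 were not called. The fall in Star, which brings cholesterol into the mitochondrion, had a log2 difference of -2.57 (adjusted p = 0.0472). The 7 adipocyte markers averaged 5.83 to 6.35 in DHT-treated and 6.49 to 7.20 in placebo-treated ovaries, without overlap, and of these Lipe, a lipase of fat droplets, fell (log2 difference -0.35, adjusted p = 0.0902) and 6 were not called. The 5 markers of lymphatic endothelium averaged 6.80 to 6.91 in DHT-treated and 6.60 to 6.71 in placebo-treated ovaries, also without overlap, and none of them was called. Among stromal lists, the 8 fibroblast markers averaged 7.36 to 7.55 in DHT-treated and 7.42 to 7.91 in placebo-treated ovaries. The 9 markers of mural (vessel wall) cells averaged 7.95 to 8.41 and 8.24 to 8.60, all 9 with a lower mean in DHT-treated ovaries. For the 3 theca markers the averages were 7.92 to 8.43 and 6.76 to 8.47. In these lists the groups overlapped and no gene was called. The part of luteal, macrophage, lymphocyte, fat, lymphatic, stromal or other cells in the Vcam1 values was not tested.

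**Figure D3:**
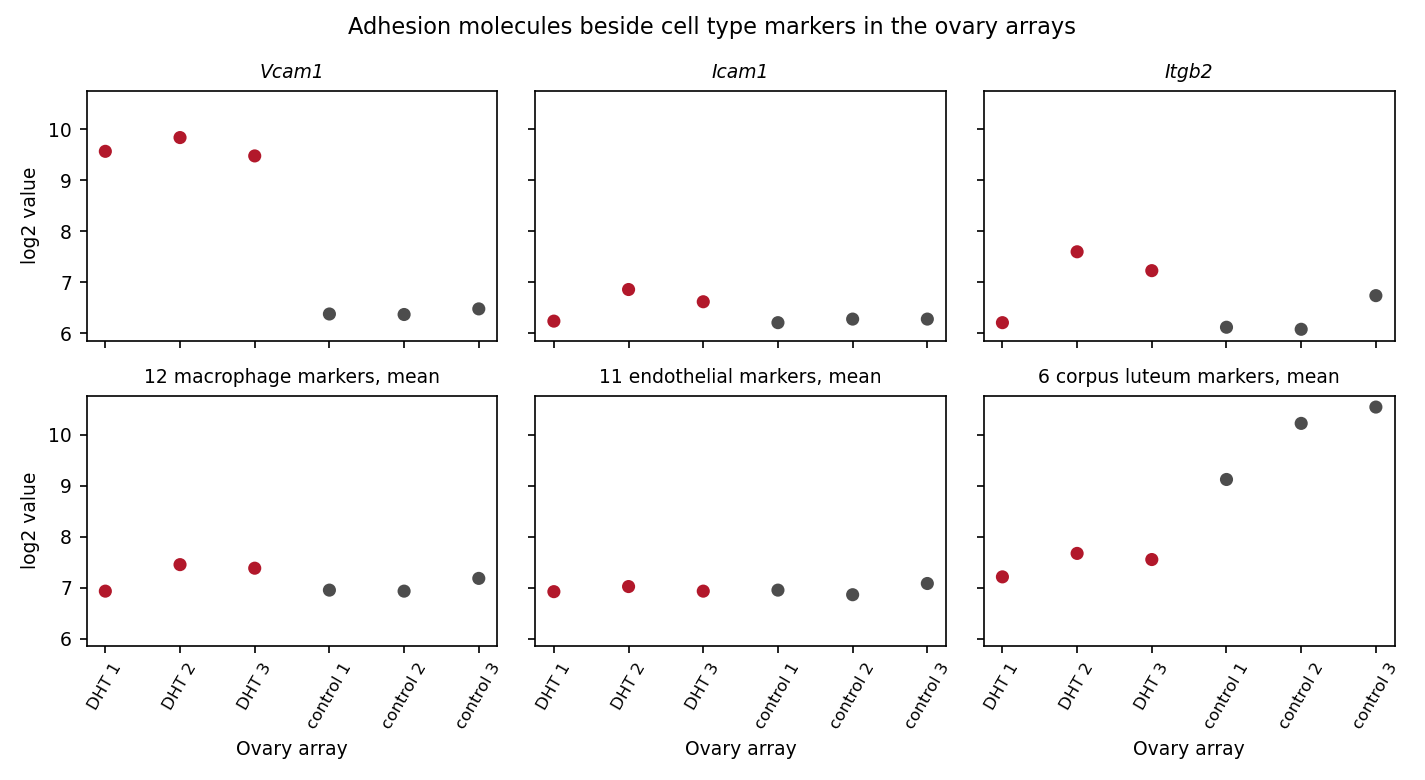
Log2 values (vertical axis) in each ovary array (horizontal axis) of Vcam1, Icam1 and Itgb2 and of the means of 12 macrophage, 11 endothelial and 6 corpus luteum markers, with DHT-treated arrays in red and control (placebo-treated) arrays in grey. The macrophage mean is at 6.93 in DHT replicate 1 and at 7.45 and 7.38 in DHT replicates 2 and 3, and the corpus luteum mean is at most 7.67 in DHT-treated and at least 9.12 in placebo-treated ovaries.

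In gonadal fat, the mean of the 12 macrophage markers was 6.89 to 7.12 in DHT-treated and 6.41 to 6.97 in placebo-treated mice. All 12 had a higher mean in DHT-treated mice and 1 was called, Mertk (log2 difference 0.50, adjusted p = 0.0726). The 11 endothelial markers averaged 7.18 to 7.34 in DHT-treated and 7.12 to 7.29 in placebo-treated mice, and 1 of them rose, Cldn5, a tight junction protein (log2 difference 0.95, adjusted p = 0.0319). Of the 11, 6 had a higher and 5 a lower mean in DHT-treated mice, and 10 were not called. Markers of fibroblasts, which had 8 genes with a cluster, averaged 6.97 to 7.05 in DHT-treated and 7.16 to 8.09 in placebo-treated mice, and those of mesothelium, with 7 genes, averaged 5.59 to 6.24 in DHT-treated and 6.27 to 6.58 in placebo-treated mice. The adipocyte markers, also 7, averaged 10.50 to 10.63 in DHT-treated and 10.01 to 10.13 in placebo-treated mice. The fibroblast, mesothelial and adipocyte levels did not overlap between the groups, as those of Vcam1 did not, and their part in the Vcam1 difference was not tested. The fibroblast mean leans on 1 gene, Lum, which had the largest difference of the 8 (log2 difference -2.03, adjusted p = 0.0319). The 7 other fibroblast markers were not called, and 2 of the 8 had a higher mean in DHT-treated mice. Among the 7 adipocyte markers Lep had the largest difference (log2 difference 2.08, adjusted p = 0.00214). Lipe also rose (0.38, adjusted p = 0.0575), 5 were not called, and 6 of the 7 had a higher mean in DHT-treated mice. All 7 mesothelial markers had a lower mean in DHT-treated mice. Of these Wt1 fell (log2 difference -0.73, adjusted p = 0.0522) and 6 were not called.

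The wider network of leukocyte adhesion was read from 8 lists with 103 genes, 100 of which had a cluster. The lists were chosen with earlier results of these data known. Their shares called are therefore a description, and no excess over all genes is read from them. In the ovaries 93 were tested. Of the 92 besides Vcam1, none rose, 2 fell and 90 were not called, which is 2.17% called beside 1.26% of all genes. The median log2 difference of the 93 was 0.03, against 0.00 over all genes. Both genes that fell belong to the glycosylation and sulfation of selectin ligands, a list of 11. Tpst2, a sulfotransferase that acts on tyrosines of proteins such as PSGL-1, had log2 values of 6.88, 7.01 and 7.01 in DHT-treated, against 8.0, 7.91 and 8.29 in placebo-treated ovaries. It fell by a log2 difference of -1.10 (standard error 0.11, adjusted p = 0.0197), with no overlap, and without DHT replicate 3 the adjusted p was 0.104. Chst2, a sulfotransferase that acts on the sugar chains of L-selectin ligands, had 6.26, 6.49 and 6.43 in DHT-treated, against 6.84, 6.84 and 6.94 in placebo-treated ovaries. It fell by a log2 difference of -0.48 (standard error 0.08, adjusted p = 0.0685), and this call was lost without any 1 of the 6 arrays (adjusted p up to 0.201). Without the 2 arrays richest in oviduct markers the log2 differences were -1.20 for Tpst2 (adjusted p = 0.206) and -0.51 for Chst2 (adjusted p = 0.397), in a fit that called 5 of all genes tested in place of 241.

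The list for cytokine and NF-kB signalling, which induces VCAM1 on endothelium, holds receptors, transcription factors and inhibitors beside cytokines. Of its 21 genes, 17 were tested in the ovaries and none passed, 12 with a higher and 5 with a lower mean in DHT-treated ovaries and a median log2 difference of 0.06. Il1r1, the receptor of interleukin 1, came nearest, with log2 values of 7.96, 8.18 and 7.90 in DHT-treated, against 7.51, 7.59 and 7.63 in placebo-treated ovaries (log2 difference 0.44, adjusted p = 0.121). It was called with quantile normalization and with a filter at the 75th percentile. The 2 inhibitors whose promoter windows hold the NF-kB core had differences of like size. Nfkbia was at 8.15, 8.60 and 8.48 in DHT-treated, against 7.93, 8.10 and 7.93 in placebo-treated ovaries (log2 difference 0.42, adjusted p = 0.221). Tnfaip3 was at 5.33, 6.20 and 5.72 in DHT-treated, against 5.23, 5.45 and 5.29 in placebo-treated ovaries, which overlapped (log2 difference 0.43, adjusted p = 0.461). Tnf, the cytokine itself, had a log2 difference of 0.24 (adjusted p = 0.247). Differences of like size went the other way among the 5 genes with a lower mean. These were -0.38 for Il4ra (adjusted p = 0.22), -0.33 for Il13ra1 (adjusted p = 0.393) and -0.20 for Stat6 (adjusted p = 0.27). In Icam1, Nfkbia and Tnfaip3 alike, DHT replicate 2 was the highest array and DHT replicate 1 the lowest of the DHT-treated ovaries. The same order was found in Selp, Itga4, Itgb2, Tnf and the mean of the macrophage markers, so it was not particular to these genes.

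Of the immunoglobulin-type and junctional molecules of endothelium, the 14 besides Vcam1 were not called in the ovaries. The lowest log2 difference of that list was -0.25, and Cdh5 (VE-cadherin) and Pecam1 (CD31), which mark all endothelium, had -0.03 and -0.18. Of the 10 leukocyte integrin genes 9 were tested and none was called. The myeloid integrin Itgax had the most positive difference in that list, at 0.78 (adjusted p = 0.48), with 5.13, 6.75 and 6.16 in DHT-treated, against 5.05, 5.09 and 5.56 in placebo-treated ovaries. Itgax, like Itgb2, was thus high in DHT replicates 2 and 3 and not in DHT replicate 1. None of the genes for integrin activation (14 tested), for the linkers beneath ICAM and VCAM (11 tested) and for ectodomain shedding (7 tested) was called in the ovaries.

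**Figure D4:**
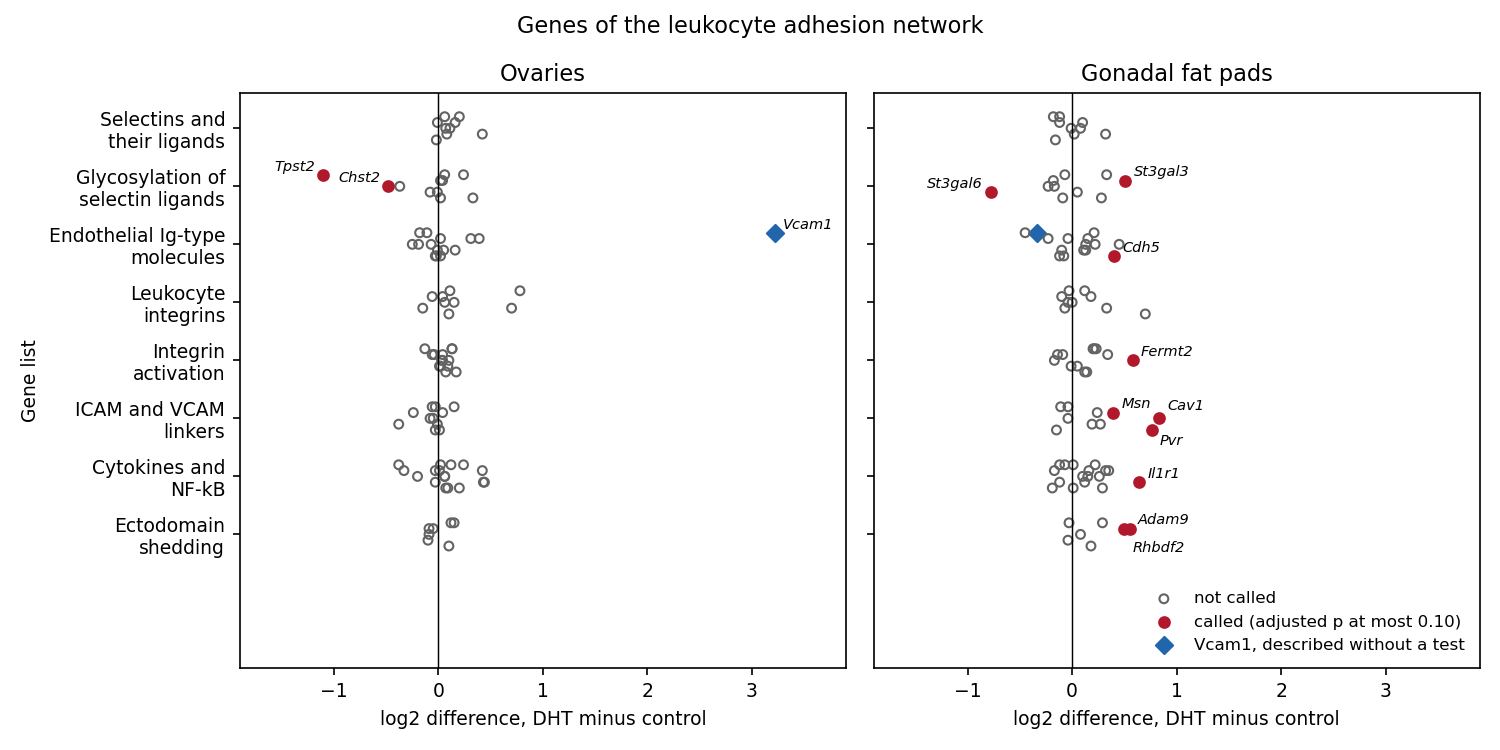
Log2 difference between DHT-treated and control (placebo-treated) mice (horizontal axis) for each tested gene of 8 adhesion lists (vertical axis) in the ovaries (left panel, 93 genes) and gonadal fat pads (right panel, 89 genes); filled red points were called (adjusted p of 0.10 or less), and the blue diamond is Vcam1. In the ovaries only Tpst2 and Chst2 are red, both below 0, while in gonadal fat 9 red points lie above 0 and St3gal6 below it.

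In gonadal fat 89 network genes were tested. Of the 88 besides Vcam1, 9 rose, 1 fell and 78 were not called, which is 11.4% called beside 3.87% of all genes, again a description. The median log2 difference of the 89 was 0.08, against -0.01 over all genes. Cav1, the caveolin that coats the caveolae of adipocytes and endothelium, had log2 values of 9.92 to 10.17 in the DHT-treated fat pads, against 9.19, 9.12 and 9.27 in placebo-treated fat pads. It rose by a log2 difference of 0.83 (standard error 0.10, adjusted p = 0.00769), with no overlap. Pvr (CD155), an immunoglobulin-type molecule of endothelial junctions, was at 6.54, 6.61 and 6.26 in DHT-treated, against 5.77, 5.63 and 5.74 in placebo-treated fat pads (log2 difference 0.76, adjusted p = 0.0204). Msn (moesin), which ties membrane proteins to actin, also rose (log2 difference 0.39, adjusted p = 0.0787). These 3 belong to the list of linkers and partners beneath ICAM and VCAM, of which 10 were tested and none fell.

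The other called genes of gonadal fat were spread over 5 lists. St3gal3 rose and St3gal6 fell, 2 sialyltransferases that can build selectin ligands. St3gal3 was at 7.63, 7.53 and 7.51 in DHT-treated, against 7.04, 6.95 and 7.15 in placebo-treated fat pads (log2 difference 0.51, adjusted p = 0.0371). St3gal6 was at 6.01, 5.80 and 5.56 in DHT-treated, against 6.70, 6.22 and 6.79 in placebo-treated fat pads (log2 difference -0.78, adjusted p = 0.0708). Neither pair of groups overlapped. Adam9, a membrane metalloproteinase (log2 difference 0.55, adjusted p = 0.0511), and Rhbdf2, the carrier of the sheddase ADAM17 (0.50, adjusted p = 0.0631), rose among 7 genes of ectodomain shedding. Il1r1 rose (0.64, adjusted p = 0.0776), as did Fermt2, the integrin activator kindlin-2 (0.58, adjusted p = 0.0879), and Cdh5 (0.40, adjusted p = 0.0934). No selectin, selectin ligand or leukocyte integrin was called, and Itgam, the alpha chain of Mac-1, came nearest among the integrins (log2 difference 0.70, adjusted p = 0.145). These calls rest on few arrays. Of the 10, 1 was still called without DHT replicate 2, which was Cav1, 3 without placebo replicate 3 and 5 without either DHT replicate 1 or DHT replicate 3. Without placebo replicate 1, 6 of them were still called and 2 other genes were added, and without placebo replicate 2, 7 were still called.

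The effect of DHT in gonadal fat was then set against that in the ovaries in 1 fit of the 12 arrays. This fit did not pair the tissues, and the fit that paired them by replicate number is given among the alternatives. Of the 88 network genes besides Vcam1 tested in both tissues, 10 had a more positive effect in gonadal fat, 1, St3gal6, a more negative one, and 77 were not called. This is 12.5% called beside 6.14% of all genes, again a description. With Vcam1 the median of the difference was 0.03, against 0.01 over all genes. Tpst2 had a log2 effect of 0.28 in gonadal fat and of -1.10 in the ovaries, a difference of 1.38 (standard error 0.13, adjusted p = 0.000779). St3gal6 had an effect of -0.78 in gonadal fat and of 0.33 in the ovaries, a difference of -1.11 (standard error 0.20, adjusted p = 0.0161). St3gal3 and Cav1 each had a difference of 0.88 (adjusted p = 0.00606 for St3gal3 and 0.0076 for Cav1), and the others ranged from 0.46 for Stat6 to 0.82 for Pvr.

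The genes whose pattern was most like that of Vcam1 were sought over the 12 arrays after removal of each tissue's mean, across 18079 genes. These correlations share the arrays and the ovarian contrast, and they are a description. The highest were Ogdhl (r = 0.974), Bpifb5 (r = 0.966), Slc29a1 (r = 0.959), Tulp2 (r = 0.954) and Ptgr1 (r = 0.951). Their log2 differences in the ovaries were 0.94 for Ogdhl, 2.29 for Bpifb5, 0.67 for Slc29a1, 1.02 for Tulp2 and 1.18 for Ptgr1, each smaller than that of Vcam1. In gonadal fat the same genes had differences between -0.13 and 0.00. The lowest were Tmem178 (r = -0.978), Abcb1b (r = -0.975) and Tmem71 (r = -0.957), whose log2 differences in the ovaries were -2.15, -3.16 and -0.90. Abcb1b encodes a drug efflux pump, Slc29a1 a nucleoside transporter and Ptgr1 a prostaglandin reductase. Within the network the most alike were Selp (r = 0.749), Itgax (r = 0.630) and Tnfaip3 (r = 0.626). No network gene tested in both tissues came near the first 5.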

How the data were processed

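The authors deposited log2 values, 1 per transcript cluster and array, between 0.698 and 13.2. MAS5 is named in the submitters' processing notes, while normalization and genome build are not given in the sources used here. Arrays have no read depth, and their number limits the precision. Of 65929 clusters, 30638 carry 1 gene symbol, 2176 several and 33115 none, and the platform's annotation supplied the symbols. In the columns of gonadal fat, 26501 clusters (40.2%), those of chromosomes 10 to 19 for the most part, held values of other clusters and were re-paired by sorting those names with "_" placed before digits. Over these clusters, the r between ovary and gonadal fat means was 0.946 after and 0.0139 before re-pairing, against 0.943 over the others. Icam2 and Itgb2 are among them. The highest-mean cluster stood for a gene. Tests used limma 3.58.1 in R 4.3.3, in place of the study's significance analysis of microarrays, with Benjamini-Hochberg adjustment over all genes that lay above the array median in at least 3 of a tissue's 6 arrays. Figures used Python 3.11.15. The fits were tested on simulated data.

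The members and lists were chosen with earlier results of these data known. The text names every member, called network genes (up to 15 a tissue), up to 3 genes per marker list by adjusted p, and the genes most and least like Vcam1; other network genes were named after their values were seen. Pairing was checked on deviations from the group means: an ovary array and the gonadal fat array with its number correlated across genes at 0.139, 0.156 and 0.192 for DHT and at 0.114, 0.110 and 0.128 for placebo, above every other combination, so numbers were taken to pair tissues, which no label states. Alternatives were other normalizations, filters, thresholds and row orders, the replicate number as a block and leaving out each array.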

Additional observations from a re-analysis of the deposited data

Results flagged for a closer look

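For 12 network genes the effect of DHT in gonadal fat differed from that in the ovaries, by the test of the difference itself for all but Vcam1, which is given without a test. As log2 effects in gonadal fat minus those in the ovaries, the differences were -3.56 for Vcam1, 1.38 for Tpst2 (adjusted p = 0.000779), -1.11 for St3gal6 (adjusted p = 0.0161), 0.88 for St3gal3 (adjusted p = 0.00606) and 0.88 for Cav1 (adjusted p = 0.0076). Smaller ones were 0.82 for Pvr (adjusted p = 0.0267), 0.64 for Adam9 (adjusted p = 0.0179), 0.63 for Msn (adjusted p = 0.0206) and 0.57 for Cttn (adjusted p = 0.0305). The last were 0.55 for Rhbdf2 (adjusted p = 0.0808), 0.47 for Cd99l2 (adjusted p = 0.0859) and 0.46 for Stat6 (adjusted p = 0.0498). Cttn, Cd99l2, Stat6 and Rhbdf2 had log2 effects of 0.19, 0.22, 0.26 and 0.50 in gonadal fat and of -0.38, -0.25, -0.20 and -0.05 in the ovaries. Without 1 array at a time, Cd99l2 lost its call in 10 of 12 fits, Rhbdf2 in 8 and Stat6 in 4, while the other 8 genes tested lost none.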

How the results depend on the processing

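Within each tissue no member other than Vcam1 was called in any alternative. The sign was kept in 14 of 15 alternatives for Icam2 and in 14 of 15 for Itga4 in the ovaries. Itgal in gonadal fat, with a main value of 0.00, kept it in 7 of 15. All other results of members kept their sign in every alternative. Between the tissues, Selp was called with the replicate block (adjusted p = 0.0967), Icam1 without DHT replicate 1 of the ovaries (0.0379) and Itgb1 without placebo replicate 1 of gonadal fat (0.0601). Vcam1 ranged from 3.11 to 3.30 in the ovaries and from -0.45 to -0.27 in gonadal fat. The values that changed sign lay near 0: Itga4 in the ovaries (-0.02 to 0.25 without 1 array), Itgal in gonadal fat (0.08 with quantile normalization, 0.07 with median centring, -0.06 to 0.06 without 1 array) and Icam2 in the ovaries (0.03 without DHT replicate 1 and placebo replicate 3 together, an alternative chosen after seeing the data). Counts of network calls in the ovaries and between the tissues include Vcam1, whose call the choice of the set fixes. In gonadal fat, Vcam1 is also included in the 21 calls of the fit of all 12 arrays (20 without it). It is counted as well in the 26 genes with an unadjusted p under 0.05. The 3 of the ovaries became 5 with a filter at the 75th percentile, 5 with all 12 arrays in 1 fit, 1 to 3 without 1 array, 1 with the replicate number as a block and 1 without DHT replicate 3 and placebo replicate 2 together, the arrays with the most oviduct transcripts, which was also chosen after seeing the data. Quantile normalization called 2 higher and 2 lower, Il1r1 being added. The 10 of gonadal fat became 6 with median centring, 6 without a filter, 21 with all 12 arrays in 1 fit, 3 at an adjusted p of at most 0.05, 0 at a 2-fold change with an unadjusted p no higher than 0.01 (26 had an unadjusted p under 0.05), 6 in the deposited row order and 1 to 8 without 1 array, and were 10 with the replicate block, with Msn lost and Itgam added. DHT-treated and placebo-treated arrays of 1 number were not paired (r of 0.330, -0.245 and -0.475 in the ovaries and 0.268, -0.198 and -0.186 in gonadal fat). The count of 12 tissue differences lay between 9 and 17, not always of the same genes: median centring added 5 genes, leaving out placebo replicate 1 of gonadal fat lost 1 and added 5, and the block that pairs the tissues gave 12, with Cd99l2 lost and Selp added. Over all genes, median centring called 91 higher and 207 lower in the ovaries, 384 and 72 in gonadal fat and 1338 and 157 between the tissues, against 104 and 137, 511 and 234, and 837 and 273. The causes were not tested.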
